A study of Mus musculus with 6 samples.

Results

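Protocadherins are the largest family of cadherin-like adhesion proteins, and 34 of their genes were measured among 19856 genes in cultured fibroblasts of mouse embryos, a common model of connective tissue cells. The members were all genes whose platform symbol begins with Pcdh and that had a probe set assigned to that gene alone. They comprised 22 clustered genes, all of the beta cluster on chromosome 18, and 12 non-clustered genes. The platform table placed 14 alpha cluster symbols together on 1 shared probe set, which was therefore not a member, and no gamma cluster gene was analysed here.

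The study compared a tetraploid line, labelled as having an abnormal DNA content and called transformed in the series title, with a diploid line, the normal control of the study. The 2 groups had 3 arrays each, from total RNA of cells grown in serum-containing medium to near confluence. Both are lines of embryonic fibroblasts, and the labels give no strain, sex, age or passage. With 1 line per ploidy, the effects of ploidy, of transformation and of the line itself cannot be told apart. Nothing says that samples of a line came from separate cultures, so p-values reflect the spread between these arrays alone, which may be technical. Fewer cells of a type and less RNA per cell cannot be told apart in such samples either.

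Clustered protocadherin genes lie in tandem arrays. In the alpha and gamma clusters each variable exon has its own promoter and is joined to shared constant exons, whereas each beta gene is a single exon that encodes a whole protein. In neurons, each cell switches on a limited choice of these genes, and the proteins bind only their own kind across cells, which gives a neuron a surface identity. Non-clustered protocadherins fall into a delta-1 and a delta-2 subgroup and a few others, act as single adhesion and signalling proteins, and are known from the nervous system, from early embryos and from several mesenchymal tissues.

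Levels are the deposited log2 values, and a difference is the mean of the tetraploid arrays minus that of the diploid arrays. Errors are the SD over 3 arrays. Calls were made at 0.05 on the adjusted p of limma, a linear model fitted to all genes, with Benjamini-Hochberg adjustment over all of them. Background on each array was the 95th percentile of 1027 olfactory receptor genes, and its range was 7.18 to 7.41 for the tetraploid arrays and 7.01 to 7.26 for the diploid arrays. Of 12 fibroblast markers, 11 lay above background on all tetraploid arrays and 12 on all diploid arrays, and the exception, Lum, lay below it on all tetraploid arrays. Of these markers 0 rose, 5 fell (Col1a1, Col5a1, Fn1, Lum and Postn) and 7 did not pass, with a median difference of -0.85. Of all genes, 6.15% rose and 7.80% fell. In 8 of the 12 markers all tetraploid values lay below all diploid values, as in 18.2% of all genes. Pdgfra had the opposite pattern and was not called (difference 1.39, limma adjusted p = 0.0618). Dcn also had a positive difference, of 0.46, with overlapping lines (limma adjusted p = 0.313).

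The called genes of the 2 classes lay in opposite directions. Of the 22 beta cluster genes, 11 rose in the tetraploid line, 0 fell and 11 did not pass the test. Of the 12 non-clustered genes, 3 fell, 0 rose and 9 did not pass. Over all genes tested, limma called 14.0% in either direction, 6.15% as higher and 7.80% as lower in the tetraploid line. The median difference was 1.42 over the beta genes and -1.15 over the non-clustered genes, against 0.07 over all genes. The fall of 5 of the 12 fibroblast markers given above went with that of the non-clustered genes, and its part in it was not tested. The direction of the difference was positive in 18 of 22 beta genes and negative in 11 of 12 non-clustered genes. Among all 19856 genes it was positive in 10875 and negative in 8980. No test was made of the contrast between the 2 classes.

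**Figure D1:**
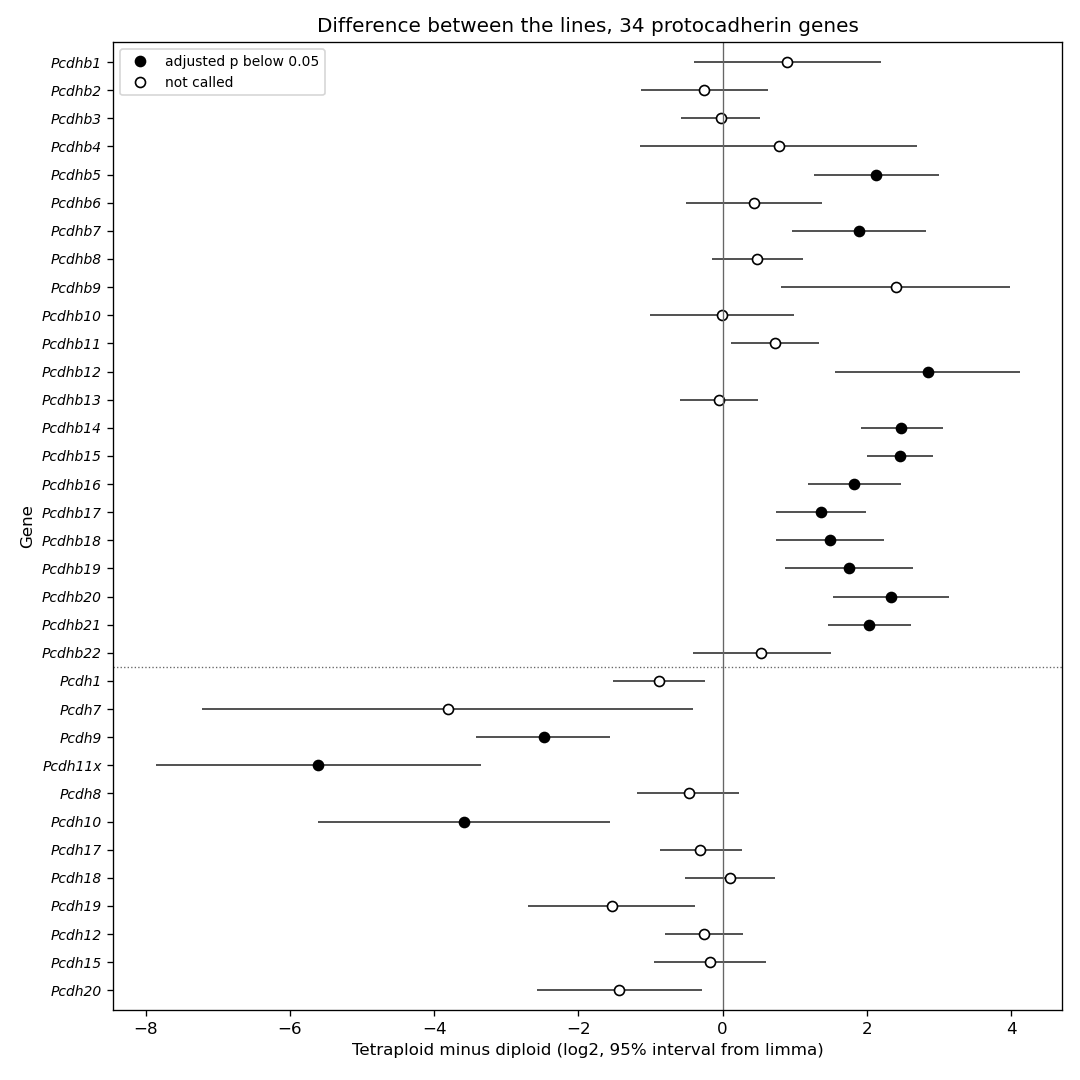
Difference between the tetraploid and the diploid line on the log2 scale for each of the 34 protocadherin genes, with the 95% interval from limma; filled points have an adjusted p below 0.05. Beta cluster genes stand above the dotted line in chromosomal order, with 11 filled points, all to the right of 0, and non-clustered genes below it, with 3 filled points, all to the left of 0.

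Many members lay near the limit of what the arrays measure. In all, 19 of the 34 genes were above background on at least 1 array and 15 on none. Among the beta genes, 7 were above background on all 3 tetraploid arrays and 0 on all 3 diploid arrays. Array by array, 9, 10 and 7 beta genes exceeded background on tetraploid arrays 1 to 3, against 0, 2 and 3 on diploid arrays 1 to 3. The non-clustered genes ran the other way, with 4 above background on all tetraploid arrays and 8 on all diploid arrays. Where a gene lay at or below background on every array of a line, its fold is a lower bound, computed with the values of that line raised to background.

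Most of the beta genes that rose stood next to each other. In chromosomal order, the 8 consecutive genes Pcdhb14 to Pcdhb21 were all called, while 3 of the 13 genes before them, Pcdhb5, Pcdhb7 and Pcdhb12, were called. The last gene of the cluster, Pcdhb22, was not. Of all genes, 6.15% rose. The median difference was 1.83 over the 9 genes from Pcdhb14 to Pcdhb22 and 0.73 over the 13 genes from Pcdhb1 to Pcdhb13. This division was drawn after the values had been seen and was not tested. The mean of the 9 distal genes was 7.73, 8.17 and 8.24 on tetraploid arrays 1 to 3, against 5.92, 6.39 and 6.39 on diploid arrays 1 to 3.

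**Figure D2:**
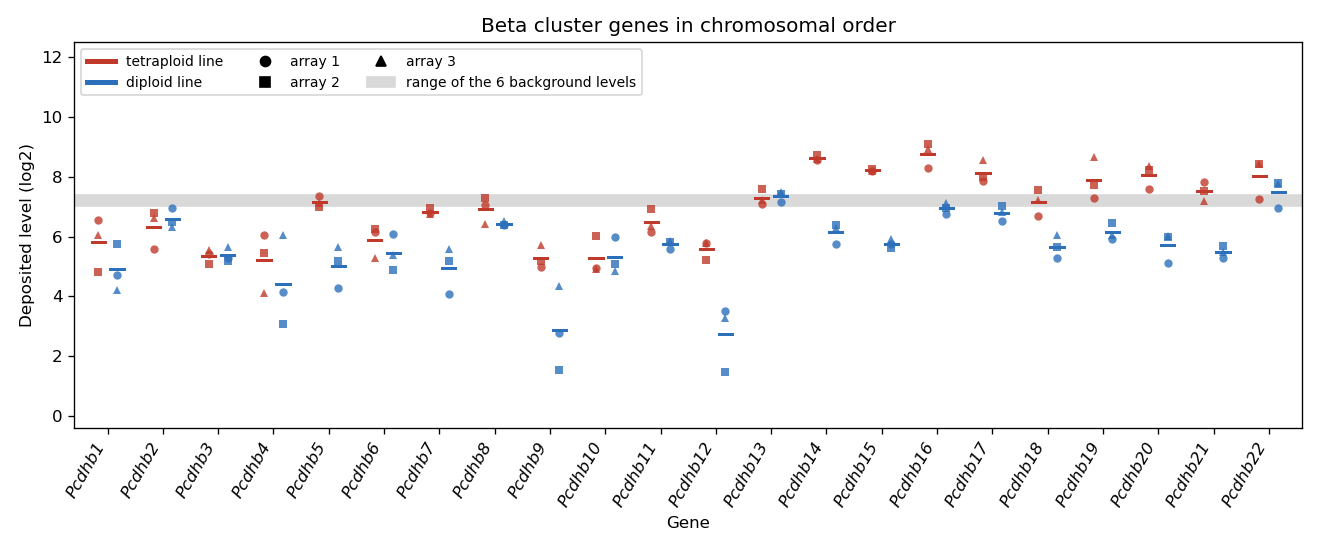
Deposited log2 level of the 22 beta cluster genes in chromosomal order, with 1 point per array, a bar at the mean of each line and the range of the 6 background levels in grey. From Pcdhb14 to Pcdhb21 all tetraploid points lie above all diploid points, and most genes from Pcdhb1 to Pcdhb12 lie below the grey band in both lines.

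Pcdhb14, which like the other beta genes encodes an adhesion protein without the constant domain of the other clusters, stood at 8.56, 8.72 and 8.61 on the tetraploid arrays, against 5.75, 6.39 and 6.30 on the diploid arrays. All tetraploid values were above background and all diploid values below it. The means were 8.63 ± 0.08 and 6.15 ± 0.35 (SD, n = 3 each), at least 2.76-fold higher in the tetraploid line (difference 2.48 with a 95% interval of 1.93 to 3.04, limma adjusted p = 0.00191). Pcdhb15 stood at 8.21, 8.26 and 8.18 on the tetraploid arrays, against 5.74, 5.61 and 5.91 on the diploid arrays. Its spread was small in both lines, and the difference was 2.46 (interval 2.02 to 2.90, limma adjusted p = 9.45e-04), at least 2.07-fold. Pcdhb16 stood at 8.29, 9.09 and 8.94 on the tetraploid arrays, against 6.75, 6.96 and 7.13 on the diploid arrays, of which only the third was above background. The difference was 1.83 (limma adjusted p = 0.00836), and 1.57 with values raised to background, since 2 of the 3 diploid signals were not separated from it.

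Pcdhb20 stood at 7.58, 8.22 and 8.36 on the tetraploid arrays, against 5.13, 5.99 and 6.02 on the diploid arrays. It was above background on all tetraploid arrays and on no diploid array, at least 1.85-fold higher (difference 2.34, limma adjusted p = 0.00770). The calls of Pcdhb14, Pcdhb15, Pcdhb16 and Pcdhb20 held in all 14 alternative settings, including the fits without any 1 array. Their limma adjusted p values were up to 0.0108, 0.00789, 0.0400 and 0.0314 in this order. Of these settings, the filter on genes above background on at least 3 arrays adds nothing, since these genes passed it through their tetraploid arrays. Averaging of probe sets adds nothing either, since each of these genes had 1 probe set.

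The other 4 genes of the distal run had calls that some settings ended. Pcdhb17 stood at 7.87, 8.00 and 8.55 on the tetraploid arrays, against 6.52, 7.01 and 6.82 on the diploid arrays, at least 1.96-fold higher (limma adjusted p = 0.0185). Its lines did not overlap, but the adjusted p was 0.0721, 0.0562 and 0.0625 without diploid arrays 1, 2 and 3. Pcdhb19 stood at 7.30, 7.72 and 8.66 on the tetraploid arrays, against 5.93, 6.46 and 6.04 on the diploid arrays (at least 1.66-fold, limma adjusted p = 0.0255). The tetraploid arrays were spread over more than 1 log2 unit, and the adjusted p was 0.0627 to 0.0878 without tetraploid array 2 or without any 1 diploid array, and 0.114 with values raised to background.

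Pcdhb21 stood at 7.83, 7.53 and 7.19 on the tetraploid arrays, 2 of them above background, against 5.28, 5.68 and 5.49 on the diploid arrays. It was at least 1.28-fold higher (difference 2.03, limma adjusted p = 0.00420), and its call ended only with values raised to background (adjusted p = 0.156). Pcdhb18 stood at 6.68, 7.55 and 7.24 on the tetraploid arrays, against 5.28, 5.65 and 6.07 on the diploid arrays. A single value of the 6, that of tetraploid array 2, was above background, so that no fold can be given beside the called difference of 1.49 (limma adjusted p = 0.0250). That call also ended without tetraploid array 2 or 3 or diploid array 1 or 2 (adjusted p 0.0636 to 0.0893) and at a floor set at background (0.463).

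Pcdhb22 and Pcdhb13, on the 2 sides of the run, did not pass the test. Pcdhb22 stood at 7.26, 8.44 and 8.42 on the tetraploid arrays, against 6.95, 7.78 and 7.76 on the diploid arrays, and the lines overlapped (difference 0.54, interval -0.40 to 1.49, limma adjusted p = 0.423). Array 1 was the lowest in both lines. Pcdhb13 stood at 7.09, 7.61 and 7.22 on the tetraploid arrays, against 7.15, 7.41 and 7.51 on the diploid arrays, close to background throughout (difference -0.05, interval -0.58 to 0.48, limma adjusted p = 0.911). The interval of Pcdhb13 lies below those of its neighbour Pcdhb14 and of Pcdhb15, although the differences between genes were not tested.

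Of the 12 genes from Pcdhb1 to Pcdhb12, 11 lay at or below background on all 6 arrays, so their differences are those of signals that the arrays do not separate from background. The called ones were Pcdhb5, Pcdhb7 and Pcdhb12. Pcdhb5 stood at 7.36, 7.00 and 7.13 on the tetraploid arrays, the first of them above background, against 4.27, 5.18 and 5.64 on the diploid arrays (difference 2.13, limma adjusted p = 0.0129). Pcdhb7 stood at 6.79, 6.97 and 6.76 on the tetraploid arrays, against 4.07, 5.17 and 5.60 on the diploid arrays (difference 1.89, limma adjusted p = 0.0232). Pcdhb12 stood at 5.80, 5.22 and 5.78 on the tetraploid arrays, against 3.51, 1.48 and 3.28 on the diploid arrays (difference 2.85, limma adjusted p = 0.0176). In all 3 genes the lines did not overlap, but none has a fold, and raising values to background ended the 3 calls (adjusted p 0.463 each). The call of Pcdhb7 also ended without any 1 tetraploid array (adjusted p 0.0553 to 0.0723) and without diploid array 2 (0.0669), and that of Pcdhb12 without tetraploid array 1 (0.0518) or 3 (0.0522). Among genes above background on no array, limma called 4.84%.

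The other 9 genes of that stretch did not pass. Pcdhb9 had a difference of 2.40 (interval 0.83 to 3.97, limma adjusted p = 0.0563) and Pcdhb11 of 0.73 (interval 0.13 to 1.32, limma adjusted p = 0.105), and in both the lines did not overlap. Pcdhb1, Pcdhb2, Pcdhb3, Pcdhb4, Pcdhb6, Pcdhb8 and Pcdhb10 had differences between -0.26 and 0.90, with overlapping lines (limma adjusted p 0.272 to 0.995). Over the whole cluster, 13 of 22 beta genes had all tetraploid values above all diploid values, and 0 had the opposite. Over all genes, 37.3% had lines that did not overlap, 19.1% with the first pattern and 18.2% with the second. Beta genes are close relatives in sequence, and binding of 1 transcript to the probes of another was not tested.

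The neighbourhood of the beta cluster was set beside it, a choice made after the values had been seen. Of the 447 chromosome 18 genes that are not protocadherins, 247 had a positive difference, with a median of 0.06, and 36 rose. Over all genes, 10875 of 19856 had a positive difference, with a median of 0.07, and 6.15% rose. Of the 19 other genes among the 10 measured genes on each side, 17 had a positive difference, with a median of 0.45, and 1 rose. In 12 of these 19 all tetraploid values lay above all diploid values, and 1 had the opposite. The first pattern was that of 13 of the 22 beta genes and of 19.1% of all genes, so it was not particular to the cluster. The gene that rose was Hdac3, a histone deacetylase gene, at 11.92, 11.87 and 11.71 on the tetraploid arrays, against 10.90, 10.94 and 10.98 on the diploid arrays (1.86-fold higher, limma adjusted p = 0.0222). Its call ended without tetraploid array 2 (adjusted p = 0.0551) or any 1 diploid array (0.0717 to 0.0970). Slc25a2 and Taf7, the first genes after Pcdhb22, had differences of 0.66 (limma adjusted p = 0.102) and -0.43 (limma adjusted p = 0.682), at levels below background. The shared alpha cluster probe set stood at 6.78, 5.69 and 5.41 on the tetraploid arrays, against 6.47, 6.35 and 7.29 on the diploid arrays, and 1 of these 6 values, that of diploid array 3, was above background.

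**Figure D3:**
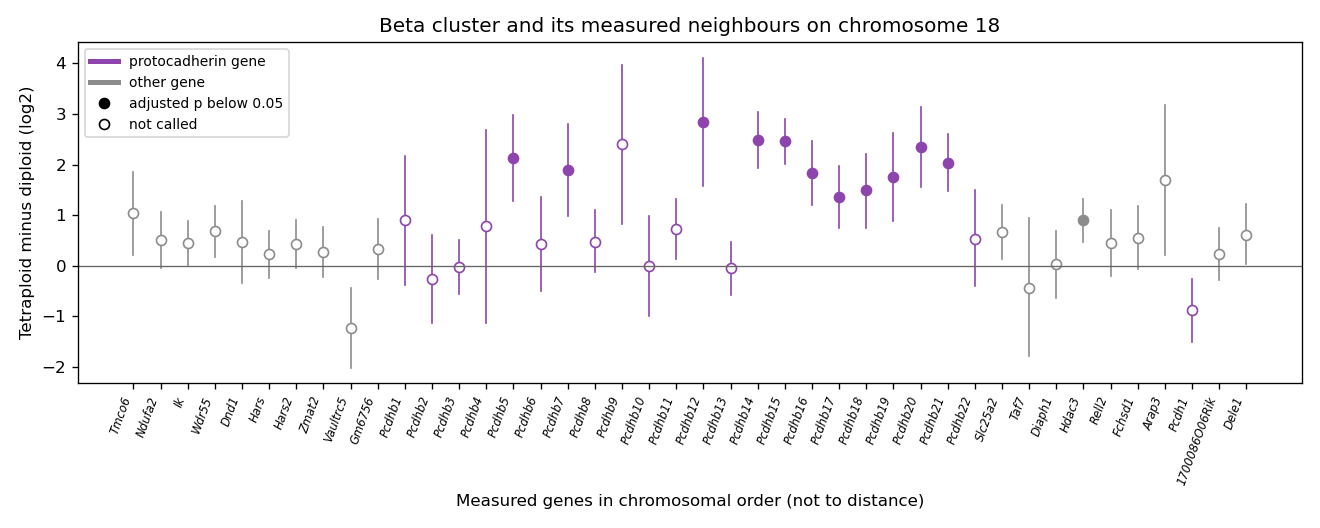
Difference between the tetraploid and the diploid line (log2, with the 95% interval from limma) for the beta cluster and the 10 measured genes on each side, in chromosomal order; filled points have an adjusted p below 0.05. Most grey points lie between 0 and 1, the run from Pcdhb14 to Pcdhb21 lies between 1.36 and 2.48, and Pcdh1 lies at -0.88.

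The non-clustered genes were lower where they were called. For 3 of them, Pcdh9, Pcdh10 and Pcdh18, the sequence from 250 bases before to 50 bases after the RefSeq transcription start is printed, since the first 2 fell, while Pcdh18 was not called and lay above background on all arrays. Capitals mark the GC box, searched as GGGCGG and its reverse complement CCGCCC, to which SP1-type factors are known to bind. Sequences are from RefSeq on the build GRCm38.p6, each 5′ to 3′ on the strand of its gene. The table held 9 of the non-clustered members.
Pcdh9, chr14:93890630-93890929, minus strand: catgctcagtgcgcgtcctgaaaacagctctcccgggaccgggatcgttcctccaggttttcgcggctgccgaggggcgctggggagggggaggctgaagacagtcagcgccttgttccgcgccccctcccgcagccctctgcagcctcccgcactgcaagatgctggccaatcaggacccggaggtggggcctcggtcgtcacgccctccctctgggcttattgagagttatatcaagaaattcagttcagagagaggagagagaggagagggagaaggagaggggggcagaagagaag
Pcdh10, chr3:45378148-45378447, plus strand: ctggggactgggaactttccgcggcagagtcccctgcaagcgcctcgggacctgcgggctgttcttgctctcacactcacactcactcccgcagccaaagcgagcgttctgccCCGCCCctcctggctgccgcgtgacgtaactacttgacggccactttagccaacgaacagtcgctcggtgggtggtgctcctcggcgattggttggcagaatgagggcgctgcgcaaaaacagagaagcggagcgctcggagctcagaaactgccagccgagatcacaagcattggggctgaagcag
Pcdh18, chr3:49757267-49757566, minus strand: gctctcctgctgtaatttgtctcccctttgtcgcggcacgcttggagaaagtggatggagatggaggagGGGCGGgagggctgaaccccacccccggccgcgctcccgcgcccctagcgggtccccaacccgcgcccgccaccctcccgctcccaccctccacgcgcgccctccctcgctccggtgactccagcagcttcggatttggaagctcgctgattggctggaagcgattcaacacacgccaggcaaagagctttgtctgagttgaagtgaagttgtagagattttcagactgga

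For Pcdh9 the table held 2 overlapping windows, of which the first is used. No window was used for Pcdh1, Pcdh11x and Pcdh12. G and C made up 62.7%, 62.3% and 63.0% of the windows of Pcdh9, Pcdh10 and Pcdh18, against a median of 52.7% over 32851 promoter windows of the same length. The other 6 members with a window ran from 43.7% in Pcdh20 over 50.7% in Pcdh15, 54.3% in Pcdh8, 59.3% in Pcdh7 and 65% in Pcdh17 to 67.7% in Pcdh19, so the printed windows do not stand apart from them. The printed windows held 18, 24 and 23 CG dinucleotides and the other 6 between 4 and 26, against a median of 7. A GC box was found in the windows of Pcdh10 and Pcdh18 and not in that of Pcdh9, in 4 of the 9 members with a window and in 35.7% of all windows.

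Among the 4 delta-1 genes 2 fell and the other 2 were not called, while 7.80% of all genes fell. In all 4 every tetraploid value lay below every diploid value, a pattern of 18.2% of all genes, although Pcdh1 lay below background on every array. Pcdh9, an adhesion gene known from sensory and cortical circuits, stood at 7.01, 6.70 and 8.17 on the tetraploid arrays, against 9.82, 9.62 and 9.90 on the diploid arrays. The diploid values were tight and well above background, and 1 of 3 tetraploid values was above it. The means were 7.30 ± 0.78 and 9.78 ± 0.15 (SD, n = 3 each), lower in the tetraploid line (difference -2.48, interval -3.40 to -1.57, limma adjusted p = 0.0102). With values raised to background the difference was -2.19, since 2 of the 3 tetraploid signals were not separated from it. The call held in all 14 alternative settings, with an adjusted p up to 0.0415. The filter on genes above background on at least 3 arrays adds nothing here, since Pcdh9 passed it through its diploid arrays. A further probe set of Pcdh9 gave 6.95, 6.30 and 8.19 on the tetraploid arrays, against 9.82, 9.68 and 9.95 on the diploid arrays.

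Pcdh11x, the X-linked delta-1 gene, stood at 0.04, 4.02 and 3.22 on the tetraploid arrays, against 7.70, 8.46 and 7.93 on the diploid arrays. All diploid values were above background and all tetraploid values far below it, the first of them near the floor of the scale at 0. It was at least 1.67-fold lower in the tetraploid line (limma adjusted p = 0.0129), and the adjusted p was 0.0525 without diploid array 2. Pcdh7, whose protein is known to bind a protein phosphatase, stood at 8.54, 2.35 and 7.24 on the tetraploid arrays, against 9.70, 9.92 and 9.93 on the diploid arrays. The lines did not overlap, but the tetraploid SD was 3.26 against 0.13 in the diploid line, and the difference of -3.81 (interval -7.20 to -0.42) did not pass (limma adjusted p = 0.129). Without tetraploid array 2, the low one, the difference was -1.96 and passed (adjusted p = 0.0453), and it also passed with values raised to background (-2.11, adjusted p = 6.85e-04). Pcdh1, known from airway epithelium, lay below background on all arrays (difference -0.88, limma adjusted p = 0.0703).

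Of the 5 delta-2 genes, 1 fell and 4 did not pass, while 7.80% of all genes fell. Pcdh10, known for the growth of forebrain axons and as a gene often silenced in tumours, stood at 6.21, 2.45 and 4.04 on the tetraploid arrays, against 7.58, 8.04 and 7.84 on the diploid arrays. The diploid values were just above background and the tetraploid values below it, at least 1.44-fold lower in the tetraploid line (difference -3.58, interval -5.59 to -1.58, limma adjusted p = 0.0358). This call ended without tetraploid array 2 (adjusted p = 0.0595) or 3 (0.0907) and without any 1 diploid array (0.0907 to 0.109).

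Pcdh19, the X-linked delta-2 gene whose loss causes a form of epilepsy in humans, stood at 10.00, 7.94 and 8.87 on the tetraploid arrays, against 10.45, 10.37 and 10.59 on the diploid arrays. All values were above background and the lines did not overlap, yet the tetraploid arrays differed by more than 2 log2 units. The difference of -1.53 (interval -2.68 to -0.39) did not pass (limma adjusted p = 0.0829), although it passed without tetraploid array 1 (-2.06, adjusted p = 0.0191). Pcdh18, known from mesoderm and its derivatives, stood at 11.29, 10.53 and 10.66 on the tetraploid arrays, against 10.57, 10.69 and 10.89 on the diploid arrays. It lay far above background in both lines, and the interval of its difference of 0.11 ran from -0.50 to 0.72 (limma adjusted p = 0.821). Pcdh8, known from somite formation, and Pcdh17 lay below background on all arrays, with differences of -0.47 and -0.31 (limma adjusted p 0.340 and 0.443).

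**Figure D4:**
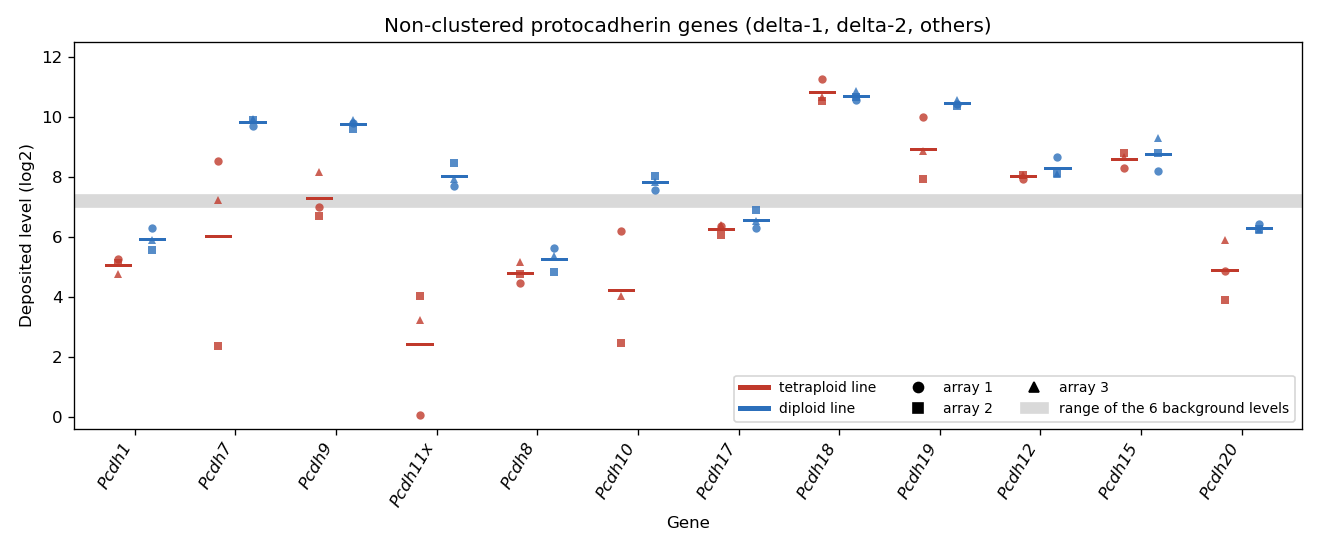
Deposited log2 level of the 12 non-clustered protocadherin genes, ordered as delta-1, delta-2 and other genes, with 1 point per array, a bar at the mean of each line and the range of the 6 background levels in grey. The tetraploid points of Pcdh7, Pcdh11x, Pcdh10 and Pcdh19 are widely spread, while the diploid points of the same genes lie close together.

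The remaining 3 genes did not pass. Pcdh12, known from endothelium and placenta, stood at 7.95, 8.08 and 8.08 on the tetraploid arrays, against 8.66, 8.12 and 8.10 on the diploid arrays (difference -0.26, interval -0.79 to 0.27, limma adjusted p = 0.503). The lines did not overlap, but by a margin of hundredths. Pcdh15, part of the tip link of hair cells in the inner ear, stood at 8.30, 8.81 and 8.67 on the tetraploid arrays, against 8.19, 8.79 and 9.31 on the diploid arrays (difference -0.17, limma adjusted p = 0.782). The probe set behind these values was the brighter of its 2, and the other gave 5.19, 3.76 and 5.16 on the tetraploid arrays, against 4.88, 5.62 and 6.13 on the diploid arrays, all below background. Pcdh20 stood at 4.86, 3.88 and 5.90 on the tetraploid arrays, against 6.44, 6.27 and 6.22 on the diploid arrays, all below background (difference -1.43, limma adjusted p = 0.0959).

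The spread within a line is given as a description. The median SD over the tetraploid arrays was 0.592 for the non-clustered genes, 0.402 for the beta genes and 0.345 over all genes. Over the diploid arrays it was 0.268, 0.373 and 0.235 in the same order. On tetraploid array 2 the mean of the non-clustered genes was 5.89, against 6.69 and 6.77 on tetraploid arrays 1 and 3, and it lay between 8.11 and 8.21 on the diploid arrays. That array was the lowest of the 6 for Pcdh7, Pcdh9, Pcdh10, Pcdh17, Pcdh18, Pcdh19 and Pcdh20, while among the tetraploid arrays it was the highest for Pcdh11x and Pcdh15.

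Marker lists of other cell types, some of them known to carry protocadherins, were read from the same fit. For comparison, limma called 14.0% of all genes, 6.15% as higher and 7.80% as lower in the tetraploid line. Of 13 neuron markers 0 rose, 2 fell and 11 did not pass, with means of 6.68 to 7.43 on the tetraploid arrays and 7.47 to 7.64 on the diploid arrays, of which Tubb3, Map2, Rbfox3, Syt1, Syp and Dcx lay above background on all 6 arrays, Stmn2 and Gap43 on all diploid arrays, and Snap25, Nefl, Nefm and Elavl4 on none. Gap43 and Nefl were the ones that fell (limma adjusted p 0.0279 and 0.0161). The lowest neuron mean was again on tetraploid array 2. Of 10 endothelial markers 1 rose, 3 fell and 6 did not pass, with means of 5.88 to 5.93 on the tetraploid arrays and 6.56 to 6.65 on the diploid arrays, of which Cldn5 lay above background on all 6 arrays, Egfl7 on all tetraploid arrays, Kdr on all diploid arrays, Emcn on 2 diploid arrays, and Pecam1, Cdh5, Tek, Tie1, Vwf and Erg on none. Kdr, Emcn and Erg fell and Egfl7 rose (limma adjusted p 0.00270, 0.00437, 0.0331 and 0.0255). Of 6 measured glial markers 0 rose and 0 fell. Of 10 macrophage and leukocyte markers 2 fell, with means of 4.16 to 4.51 on the tetraploid arrays and 5.09, 6.37 and 7.21 on diploid arrays 1 to 3. Of 8 epithelial markers 1 fell, with means of 6.78 to 7.23 on the tetraploid arrays and 7.38 to 7.60 on the diploid arrays. The part of such cells in the protocadherin differences was not tested.

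Genes known to act on the choice and silencing of clustered protocadherin promoters included more rises than falls in the tetraploid line. Of 18 listed, 16 were measured, 6 rose, 1 fell and 9 did not pass, with a median difference of 0.65. Over all genes, 6.15% rose and 7.80% fell. Among those that rose were 3 subunits of cohesin, the ring that holds DNA loops. Rad21 stood at 12.35, 12.30 and 12.31 on the tetraploid arrays, against 10.88, 10.85 and 11.05 on the diploid arrays (2.62-fold higher, limma adjusted p = 0.00573). Smc3 was 1.98-fold higher (limma adjusted p = 0.0157) and Smc1a 1.86-fold (limma adjusted p = 0.0451), and Dnmt1, which copies DNA methylation at replication, was 2.36-fold higher (limma adjusted p = 0.0244). Dnmt3a, a methyltransferase that sets new DNA methylation, was the gene that fell, at 7.50, 7.34 and 7.51 on the tetraploid arrays, against 8.28, 8.60 and 8.81 on the diploid arrays (2.17-fold lower, limma adjusted p = 0.0188), with tetraploid array 2 below background.

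Ctcf, which binds the promoters and enhancers of the clusters and anchors cohesin loops, stood at 9.79, 10.05 and 9.72 on the tetraploid arrays, against 9.07, 9.15 and 9.41 on the diploid arrays, and did not pass (difference 0.65, limma adjusted p = 0.0834). Smchd1, known in mice to silence clustered protocadherin genes, stood at 10.44, 10.50 and 10.28 on the tetraploid arrays, against 9.66, 9.62 and 9.97 on the diploid arrays, and did not pass either (difference 0.66, limma adjusted p = 0.0737). In both genes the lines did not overlap, as in 12 of the 16 measured genes of this list and in 37.3% of all genes. Ctcf and Smchd1 are named for their role, Dnmt3a as the only fall, after the values had been seen. Nipbl and Setdb1 are named below as further rises. Without 1 array the calls of Smc1a, Smc3, Dnmt1 and Dnmt3a were lost in several fits, among them those without diploid array 2 (adjusted p 0.158, 0.0807, 0.0954 and 0.0826) and diploid array 3 (0.0984, 0.0550, 0.0517 and 0.0681). Smc1a and Dnmt1 lost theirs without diploid array 1 too (0.138 and 0.0922), as did Smc3 (0.0656). Without tetraploid array 2, Smc1a, Dnmt1 and Dnmt3a had adjusted p values of 0.0901, 0.0551 and 0.0540, and Smc1a had 0.0690 without tetraploid array 1. The fit with a replicate block also ended the calls of Smc1a, Smc3, Dnmt1 and Dnmt3a (adjusted p 0.101, 0.0565, 0.0672 and 0.0523). Nipbl and Setdb1 also rose (limma adjusted p = 0.0476 and 0.0409). Their calls ended in 8 and 6 of the alternative settings (adjusted p up to 0.148 and 0.151).

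Signalling and processing partners of protocadherins went both ways. Of 21 listed, 18 were measured, 2 rose, 2 fell and 14 did not pass, with a median difference of -0.02. The shares over all genes were 6.15% for rises and 7.80% for falls. Ptk2b is a focal adhesion kinase that proteins of the alpha and gamma clusters bind and inhibit. No gene of those clusters was a member here. Ptk2b stood at 2.38, 5.76 and 5.23 on the tetraploid arrays, against 9.92, 9.69 and 10.15 on the diploid arrays. The tetraploid values were all below background, and the gene was at least 6.19-fold lower (limma adjusted p = 0.00904). Psen2, a catalytic subunit of the gamma-secretase that cuts protocadherins within the membrane, was at least 1.82-fold lower (limma adjusted p = 0.00983). Wasf1, of the actin-regulating WAVE complex that delta-2 proteins recruit, was 2.56-fold higher (limma adjusted p = 0.0134), with diploid array 2 below background, and the protein kinase C gene Prkca 2.30-fold (limma adjusted p = 0.0322). Without diploid array 2 the calls of Psen2, Wasf1 and Prkca ended (adjusted p 0.0513, 0.0639 and 0.121), and Prkca lost its call without any other 1 array except tetraploid array 2 (0.0565 to 0.0886).

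Other large members of the cadherin superfamily were called about as often as genes in general, of which 14.0% were called. Of 18 listed, 17 were measured, 1 rose, 2 fell and 14 did not pass, with a median difference of 0.17. Fat1, a giant cadherin, stood at 9.63, 10.71 and 10.75 on the tetraploid arrays, against 11.81, 11.74 and 11.67 on the diploid arrays (2.60-fold lower, limma adjusted p = 0.0368). Dchs1, which pairs with Fat4 in planar cell polarity, was 2.94-fold higher (limma adjusted p = 0.0458), at 8.88, 9.20 and 9.99 on the tetraploid arrays, against 7.13, 8.28 and 7.99 on the diploid arrays, the first of them below background. The synaptic calsyntenin gene Clstn2 fell at levels below background on 5 of 6 arrays (difference -2.62, limma adjusted p = 0.00967), and raising values to background ended its call (adjusted p = 0.747). The call of Dchs1 ended without any 1 array (adjusted p 0.0523 to 0.123), and with quantile normalization and centring of arrays on their medians (0.0556 and 0.0502). That of Fat1 ended without tetraploid array 2 (0.0575) and without any 1 diploid array (0.0995 to 0.115).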

How the data were processed

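Each probe set has 1 deposited log2 value per array. Per the submitters' processing notes they were made with Affymetrix Expression Console; version, algorithm and normalization are not given in the sources used here. Array medians differed by at most 0.0435, so the values were used as deposited. Of 28944 probe sets, 21789 carried 1 gene symbol, 1621 several and 5534 none. Symbols were updated through Entrez IDs to RefSeq (GRCm38.p6; 21698 probe sets matched), and the probe set with the highest mean was kept per gene, which left 19856 genes. All were fitted with limma 3.58.1 in R 4.3.3 (lmFit, eBayes, two-sided), checked on simulated data. An exact permutation test of 3 against 3 arrays cannot give a p below 0.1. Both lines use the replicate numbers 1 to 3, but deviations of same-numbered arrays correlated at only 0.101, 0.0307 and -0.0461 and nothing in the labels pairs them. The members, gene lists and background rule were chosen with earlier results of these data known. All members are named; of each regulator and partner list, up to 4 called genes with the largest difference, those above background in both lines first. Alternatives were 2 normalizations, a filter and a floor at background, a pseudocount of 50 on the linear scale, a variance trend, averaging of probe sets, a replicate block and leaving out each array. Arrays give no counts, so their number limits the precision.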

Additional observations from a re-analysis of the deposited data

How the results depend on the processing

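None of the 14 called protocadherin genes changed direction in any setting run. Pcdh20, not called with the values as deposited, was called with 50 added to the linear value (-0.65, adjusted p = 0.0489) and without tetraploid array 3 (-1.94, 0.0244), but its difference was 0.12 with values raised to background, where it is the difference of the background levels alone. Protocadherin calls numbered 14, and 8 to 13 in the fits without 1 array, where beta cluster calls numbered 7 to 10 (main value 11), non-clustered calls 1 to 4 (3), calls over the 3 regulator and partner lists 3 to 12 (14) and calls over all genes 837 to 2532 (2770). The lowest of each came without diploid array 2. With only genes above background on at least 3 arrays, 6 of the 8 beta genes left were called, which supports nothing, since these 6 passed the filter through their tetraploid arrays and the other 2, Pcdhb13 and Pcdhb22, were not called. With values raised to background 5 of 22 were called. Non-clustered calls were 5 with values raised to background, 6 with 50 added to the linear value and 5 with a variance trend, where Pcdh7 and Pcdh19 joined, and Pcdh20 with 50 added. The fit with a replicate block called 1644 genes in all, 7 in the 3 lists and 14 protocadherin genes, where Pcdh10 lost its call (adjusted p = 0.0519) and Pcdhb9 gained one (0.0409). With background at the 99th percentile of olfactory receptor genes 11 protocadherin genes lay above it on at least 1 array, against 19 at the 95th and 24 at the 90th. Where other settings moved a call, the cause was not tested.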
